A study of Mus musculus with 2 samples.

Results

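Hypoxic tumour cells were studied in MC38 tumours by single-cell RNA sequencing, and are here the tumour cells in which 4 oxygen-regulated genes took the largest share of the RNA. The score of a cell was the share of its UMIs (unique molecular identifiers, tags that mark single captured RNA molecules) that came from Ero1l, Bnip3, Ankrd37 and Fam162a. The 15% of tumour cells with the highest score, taken over both libraries together, were called hypoxic. These were 889 of 5924 tumour cells, among 16508 barcodes in the series. The other 5035 tumour cells are the comparison.

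MC38 is a mouse colon carcinoma line, injected here into the flank of C57BL/6 mice. From 5 days after injection, when tumours averaged 100 mm3, mice were given either SHP099 hydrochloride into the stomach at 5 mg/kg every day or PBS, for 14 days, and the labels also call the PBS mice untreated. SHP099 blocks SHP2, a phosphatase that growth factor receptors need to switch on RAS and ERK, by an allosteric site. Each group had 6 mice and gave 1 library, and the labels do not say from how many tumours. MC38 is 1 established line with its own mutations, all groups share the same host strain, and oxygen itself was not measured. With 1 library per group no p-value was computed, the treatment and the library cannot be told apart, and every interval covers counting error only.

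When oxygen is low, the prolyl hydroxylases that mark the HIF alpha subunits for destruction by the VHL ubiquitin ligase lose their substrate, and HIF alpha builds up. It pairs with ARNT, binds DNA at a short core that reads ACGTG or GCGTG, and raises genes for glucose uptake, glycolysis, blood vessel growth, iron and pH handling and removal of mitochondria. In solid tumours this program marks cells far from perfused vessels.

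The 4 genes of the rule are known HIF targets. Ero1l encodes an oxidase that forms disulphide bonds in the endoplasmic reticulum, Bnip3 a mitophagy receptor of the outer mitochondrial membrane, Ankrd37 an ankyrin repeat protein and Fam162a a mitochondrial protein. Their promoters are shown with those of Adm, P4ha2 and Pdk1, which stood among the 4 genes with the largest difference beyond the rule, because the HIF core motif can be read in them. Each runs from 250 bases before to 50 bases after the start site of the RefSeq gene on GRCm38.p6, 5′ to 3′ on the strand of the gene. Capitals mark ACGTG and GCGTG on either strand, where the other strand reads CACGT or CACGC.

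Ero1l (RefSeq symbol Ero1a), chr14:45318523-45318822, minus strand: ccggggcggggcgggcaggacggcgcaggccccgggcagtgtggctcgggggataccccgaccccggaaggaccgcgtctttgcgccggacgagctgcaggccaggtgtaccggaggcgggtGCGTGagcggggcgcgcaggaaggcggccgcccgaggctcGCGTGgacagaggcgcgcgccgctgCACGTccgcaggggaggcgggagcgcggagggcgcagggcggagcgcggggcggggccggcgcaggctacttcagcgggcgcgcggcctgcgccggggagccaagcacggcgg
Bnip3, chr7:138909457-138909756, minus strand: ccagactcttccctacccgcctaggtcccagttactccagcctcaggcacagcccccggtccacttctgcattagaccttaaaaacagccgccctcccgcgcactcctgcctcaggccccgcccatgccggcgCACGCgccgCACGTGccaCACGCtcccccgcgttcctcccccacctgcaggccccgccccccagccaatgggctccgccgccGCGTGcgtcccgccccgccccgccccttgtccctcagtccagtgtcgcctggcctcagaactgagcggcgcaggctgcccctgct
Ankrd37, chr8:45999801-46000100, minus strand: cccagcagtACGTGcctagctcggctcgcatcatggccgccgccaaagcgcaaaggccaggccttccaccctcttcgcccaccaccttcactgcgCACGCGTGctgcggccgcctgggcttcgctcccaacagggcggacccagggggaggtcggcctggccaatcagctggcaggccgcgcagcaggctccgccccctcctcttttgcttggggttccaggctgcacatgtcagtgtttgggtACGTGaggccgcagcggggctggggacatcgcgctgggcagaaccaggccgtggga
Fam162a, chr16:36071512-36071811, minus strand: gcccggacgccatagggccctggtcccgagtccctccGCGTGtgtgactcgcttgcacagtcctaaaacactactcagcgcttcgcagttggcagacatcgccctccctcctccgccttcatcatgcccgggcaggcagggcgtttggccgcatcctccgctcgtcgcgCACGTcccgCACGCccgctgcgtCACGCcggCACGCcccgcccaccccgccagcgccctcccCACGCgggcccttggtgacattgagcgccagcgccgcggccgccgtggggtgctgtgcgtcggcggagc
Adm, chr7:110627407-110627706, plus strand: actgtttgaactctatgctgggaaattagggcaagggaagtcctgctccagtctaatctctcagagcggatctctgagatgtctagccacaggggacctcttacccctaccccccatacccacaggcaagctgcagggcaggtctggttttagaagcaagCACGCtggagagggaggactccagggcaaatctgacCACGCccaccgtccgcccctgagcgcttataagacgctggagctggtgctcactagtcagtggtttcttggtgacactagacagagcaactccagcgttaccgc
P4ha2, chr11:54100674-54100973, plus strand: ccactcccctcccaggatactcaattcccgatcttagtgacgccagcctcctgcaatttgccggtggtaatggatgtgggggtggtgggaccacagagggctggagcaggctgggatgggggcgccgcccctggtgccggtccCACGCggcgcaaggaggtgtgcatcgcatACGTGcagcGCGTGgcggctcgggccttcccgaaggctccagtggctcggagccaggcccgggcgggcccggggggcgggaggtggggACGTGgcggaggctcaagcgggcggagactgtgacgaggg
Pdk1 (the first of 2 RefSeq entries), chr2:71872974-71873273, plus strand: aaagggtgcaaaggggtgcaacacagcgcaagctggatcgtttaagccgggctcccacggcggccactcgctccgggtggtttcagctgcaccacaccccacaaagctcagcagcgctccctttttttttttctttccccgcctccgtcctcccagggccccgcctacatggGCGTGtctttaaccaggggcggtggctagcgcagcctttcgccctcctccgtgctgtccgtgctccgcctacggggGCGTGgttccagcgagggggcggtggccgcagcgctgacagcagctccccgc

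All 4 promoters of the rule held both words, with 3 matches in Ero1l, 5 in Bnip3, 4 in Ankrd37 and 6 in Fam162a. In Bnip3 the run CACGTG reads ACGTG on both strands and counts for 2 of the 5 matches, and in Ankrd37 the run CACGCGTG holds 2 overlapping matches of GCGTG. The ACGTG of Ankrd37 nearest to the start began 6 bases before it. P4ha2 had 4 matches, with 2 of each word. Adm had 2 matches and Pdk1 had 2, and in both genes each was GCGTG. Of all 32851 RefSeq promoters of this length, 19.6% held ACGTG and 32.4% held GCGTG. Among the promoters of genes tested here the shares were 27.2% for ACGTG and 53.2% for GCGTG, from 6949 of 8577 genes matched by symbol. The genes higher in hypoxic cells, defined below by fold, matched for 102 of 125 genes and held ACGTG in 34.4% and GCGTG in 51.0% of their promoters. The genes lower in hypoxic cells matched for 123 of 156 genes and held ACGTG in 25.4% and GCGTG in 40.1%. These shares describe letters in the windows, with no test of their differences, and a match is no evidence of binding.

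Tumour cells were barcodes with at least 200 genes, at least 5000 UMIs, at most 20% of UMIs from mitochondrial genes, no UMI of the leukocyte gene Ptprc, at most 5 of the myeloid gene Tyrobp, at most 1 of the endothelial gene Pecam1, and at least 3 UMIs in all of the oncofetal genes Igf2bp2, Igf2bp3 and Hmga2 and the TWEAK receptor gene Tnfrsf12a. The last step kept 2659 of 4055 barcodes in the SHP099 library and 3265 of 3890 in the control library, so it removed a larger part of the SHP099 barcodes. The libraries held 112901642 UMIs in 8263 SHP099 barcodes and 126218180 in 8245 control barcodes. They shared 100 barcode sequences, 8 of them among tumour cells and 0 among hypoxic cells.

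Markers of other cell types were checked against the label. Summed macrophage markers stood at 247 counts per 1000000 UMIs (CPM) in hypoxic cells of the SHP099 library and 199 CPM in those of control. They stood at 272 and 228 CPM in the other tumour cells, and at 23176 and 21209 CPM in Ptprc-positive barcodes. Xist, transcribed in cells with an inactive X chromosome, was at 1.61 and 6.48 CPM in hypoxic cells of the SHP099 and control libraries, against 3.84 and 3.95 CPM in the other tumour cells and 790 and 667 CPM in Ptprc-positive barcodes. T cell markers summed to 2.37 and 5.15 CPM in hypoxic cells, against 2.45 and 2.58 CPM in the others and 300.4 and 389 CPM in Ptprc-positive barcodes. All of these lay far below the Ptprc-positive barcodes, though T cell markers and Xist were higher in hypoxic than in other tumour cells of control. Their part in the results was not tested. The epithelial genes Epcam, Krt8, Krt18 and Krt19 were at 0 UMIs in the hypoxic cells of both libraries, and Cdh1 had 1 UMI in SHP099 and 2 in control. Summed, these 5 genes stood at 2.09 CPM in the other tumour cells of SHP099 and 3.90 CPM in those of control. In hypoxic cells their sum was 0.0846 and 0.177 CPM. The stromal gene Dcn, in contrast, stood at 1327 CPM in hypoxic SHP099 cells and 1099 CPM in hypoxic control cells, against 1167 CPM in the other tumour cells of the SHP099 library. Summed fibroblast markers, mostly Dcn, stood at 1375 and 1173 CPM in hypoxic cells, against 1240 and 1120 CPM in the other tumour cells. The markers besides Dcn mostly went the other way. In SHP099 Col1a1, Col1a2, Pdgfra, Lum and Pdgfrb were all lower in hypoxic than in other tumour cells. In control all of these but Col1a1 were lower. The cells thus carried a stromal transcript and had little RNA of the epithelial markers of a colon carcinoma, least in the hypoxic cells. The term "tumour cell" therefore means here a cell that passed the gate. The part of fibroblasts in the results was not tested.

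Hypoxic cells made up a larger part of the tumour cells in the SHP099 library. They were 501 of 2659 tumour cells there, or 18.8% (95% exact binomial interval 17.4 to 20.4%), and 388 of 3265 in control, or 11.9% (10.8 to 13.0%). The ratio of the shares was 1.59 (95% interval 1.40 to 1.79). It grew toward the top of the score. Of the highest 1% of scores the SHP099 library held 1.81% of its tumour cells and control 0.337%, a ratio of 5.36. At the highest 5% the ratio was 2.60, at 20% it was 1.33, and at 50% it was 0.905, below 1. The excess of SHP099 cells thus lay in the upper tail of the score. Nearer its middle the libraries differed the other way. When all tumour cells were cut into 20 steps of the score, step 12 held 107 SHP099 and 189 control cells. The share depends on the pooled cut and on the gate, and each library is 1 sample.

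**Figure D1:**
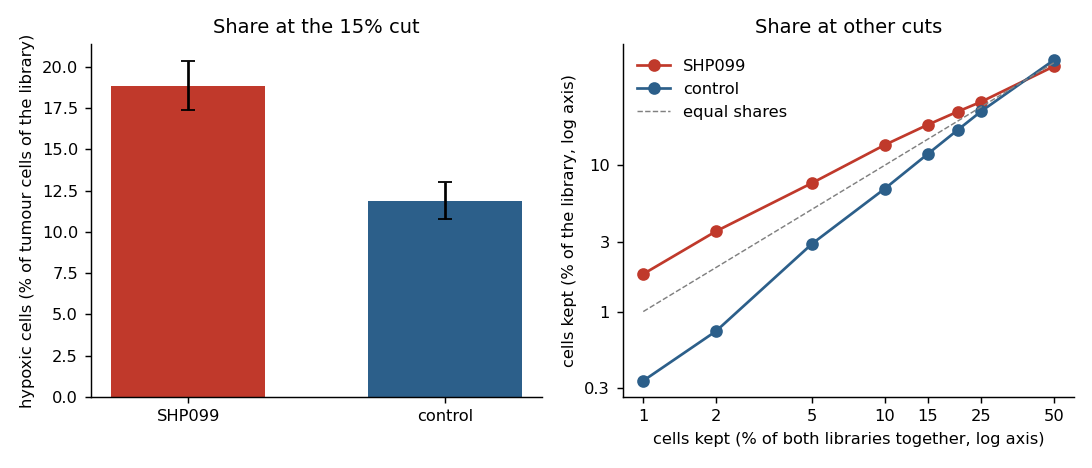
Left, hypoxic cells as a percentage of the tumour cells of each library at the cut of 15%, with 95% exact binomial intervals (18.8% in SHP099, 11.9% in control). Right, the percentage of each library's tumour cells kept (log axis) when 1 to 50% of both libraries together are kept (log axis), where the SHP099 line lies above the line of equal shares up to 25% and below it at 50%.

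The score was a range without a gap at the cut. The last cell inside had 1076.67 rule UMIs per 1000000 UMIs and the first outside 1076.61. There were 91 cells inside and 98 outside within 10% of the cut. In the cells just inside the summed level of Slc2a1 was 51.8 CPM, against 64.1 CPM just outside, and that of Pdk1 was 47.4 against 44.2 CPM. Egln3 was at 32.1 CPM inside against 57.6 CPM outside, Ndrg1 at 136 against 167 CPM, and Vegfa at 75.8 against 66.7 CPM. These HIF targets did not run one way across the cut, and the hypoxic cells are the upper end of a range. The median score was 2077 CPM in hypoxic SHP099 cells and 1657 CPM in hypoxic control cells, against 248 and 300 CPM in the other tumour cells of the SHP099 and control libraries. Among the other cells 67 in SHP099 and 84 in control had no UMI of the 4 genes.

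Depth was similar on both sides. The median was 22447 UMIs per hypoxic cell in SHP099 and 27179 in control, against 23413.5 and 26232 in the other tumour cells. Mitochondrial genes gave a median of 2.79% of UMIs in hypoxic SHP099 cells and 2.52% in hypoxic control cells, against 3.44 and 2.98% in the others. The median mitochondrial share was thus lower in hypoxic cells of both libraries, while median UMIs were lower in SHP099 and higher in control. The median number of genes per hypoxic cell was 3944 in SHP099 and 4324.5 in control, against 4195.5 and 4342 in the others.

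UMIs were summed per library over the hypoxic cells and over the other tumour cells, and log2 ratios of hypoxic over other were taken in each library with a prior of 0.5 CPM. A gene was called higher or lower when it differed by at least 1.5-fold in the same direction in both libraries. Of 8577 genes with at least 5 CPM over all tumour cells, the 4 rule genes left out, 125 were higher, which is 1.46%, and 156 were lower, which is 1.82%. No gene passed 1.5-fold in opposite directions. In the SHP099 library alone 196 genes were higher and 500 lower, and in control alone 155 were higher and 250 lower. The median log2 ratio of all genes tested was -0.11 in SHP099 and -0.07 in control. With ratios centred on that median 161 genes were higher and 80 lower, so the balance between the directions depends on the scaling. The cells were chosen with genes of the same program, so these counts describe the chosen cells and carry no test. The shares of 1.46 and 1.82% are the reference for each count of list members called between hypoxic and other tumour cells.

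**Figure D2:**
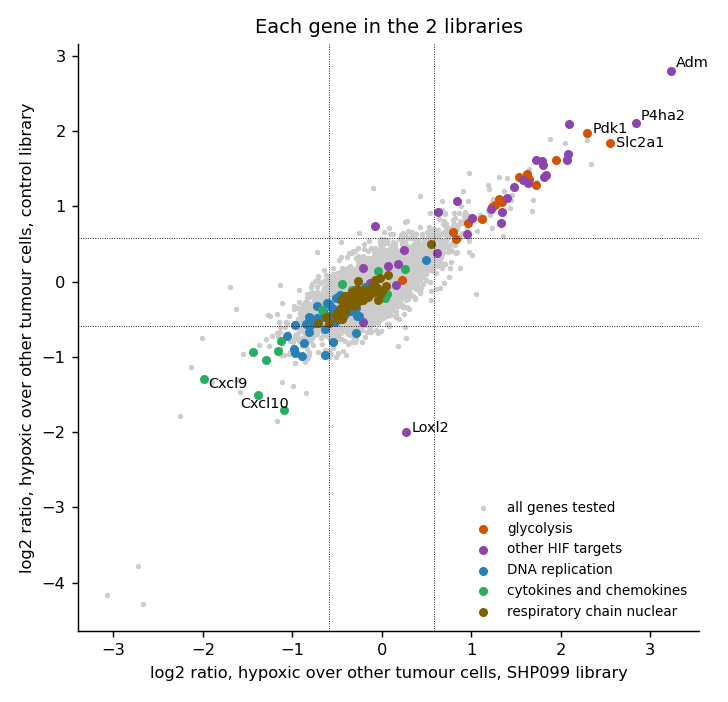
Each point is 1 of 8577 genes, with its log2 ratio of hypoxic over other tumour cells in the SHP099 library (x axis) and in the control library (y axis), and dotted lines at 1.5-fold. Glycolysis genes and other HIF targets run along the upper right up to Adm at 3.23 and 2.80, chemokines and DNA replication genes lie at the lower left, and the 3 lowest grey points are haemoglobin genes. Loxl2 stands off the diagonal.

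A gene of the rule could be measured without using its own counts, by scoring the cells on the other 3 genes. Ero1l was then at 442 CPM in the hypoxic cells of SHP099 and 273 CPM in those of control, against 40.0 and 41.1 CPM in the other tumour cells. Its log2 ratio was 3.45 in SHP099 and 2.72 in control. Bnip3 had ratios of 3.31 and 2.72, Ankrd37 of 3.06 and 2.14, and Fam162a of 2.33 and 1.92 in the SHP099 and control libraries. Each of the 4 genes thus tracked the other 3 in both libraries, with larger ratios in SHP099. The 4 genes were chosen together with earlier results of these data known, so their agreement is a description and no independent check. The hypoxic cells of SHP099 also lay higher on the score of all 4 genes, with a median of 2077 CPM against 1657 CPM in control. Leaving out 1 gene kept between 771 and 865 of the 889 cells.

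Glycolysis, the pathway that splits glucose to pyruvate and yields ATP without oxygen, was higher at nearly every step. Of 22 listed genes 17 passed the filter on low values and 15 were higher, none lower, with median log2 ratios of 1.34 in SHP099 and 1.09 in control, where all genes tested had -0.11 and -0.07. Summed over the list the level was 11411 CPM in hypoxic SHP099 cells and 10699 CPM in hypoxic control cells, against 4690 and 5191 CPM in the other tumour cells.

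The glucose transporter gene Slc2a1 (chr4:119108711-119137983, plus strand, GRCm38) had 103 CPM in hypoxic SHP099 cells and 102 CPM in hypoxic control cells, against 17.1 and 28.1 CPM in the other tumour cells. Its log2 ratios were 2.55 (95% interval 2.46 to 2.71) and 1.84 (1.75 to 1.96) in the SHP099 and control libraries. The hypoxic level was thus close in both libraries, though the hypoxic cells of SHP099 had the higher median score. The steeper ratio in SHP099 came with a lower level in its other tumour cells. Pgk1, which makes ATP from bisphosphoglycerate, had 1464 and 1285 CPM in hypoxic SHP099 and control cells, against 378 and 419 CPM in the others. Ldha, which turns pyruvate into lactate, had 1205 and 1202 CPM in hypoxic cells, against 417 and 461 CPM in the others. Slc16a3, the lactate exporter MCT4, had 255 and 217 CPM in hypoxic cells, against 81.3 and 83.7 CPM in the others. RNA of these genes for glucose uptake, glycolysis and lactate export was thus higher in hypoxic cells of both libraries.

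Pdk1 encodes a kinase that switches off pyruvate dehydrogenase and keeps pyruvate out of the mitochondrion. It stood at 94.0 and 69.0 CPM in hypoxic cells of the SHP099 and control libraries, against 18.7 and 17.2 CPM in the others, with log2 ratios of 2.30 and 1.97. The smallest ratios among called members were those of Gapdh, at 0.80 and 0.66 in the SHP099 and control libraries. Of the 17 members 2 were not called. Hexokinase 2 (Hk2) had ratios of 0.83 and 0.56, the second just under 1.5-fold, and the muscle phosphofructokinase gene Pfkm had 0.23 and 0.02. The isoform genes Slc2a3, Pfkfb3, Pfkfb4, Aldoc and Eno2 lay under the filter.

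Of 40 other HIF targets 31 passed the filter, 21 were higher and none was lower, with median log2 ratios of 1.33 in SHP099 and 0.97 in control. Adm, which encodes the vasodilator peptide adrenomedullin, had the largest ratios among genes that passed the filter, which it did through its level in hypoxic cells. The gene lies at chr7:110627661-110629820 on the plus strand (GRCm38). It had 41.0 and 39.0 CPM in hypoxic cells of SHP099 and control, against 3.91 and 5.17 CPM in the others, with log2 ratios of 3.23 (3.15 to 3.63) and 2.80 (2.72 to 3.11). Vegfa, the main growth factor of blood vessels, had 113 and 92.5 CPM in hypoxic SHP099 and control cells, against 48.0 and 47.1 CPM in the others. RNA of Adm and Vegfa was thus higher in hypoxic cells of both libraries. In contrast Angptl4, a lipase inhibitor and HIF target in other cells, had ratios of -0.07 in SHP099 and 0.74 in control. It was not called.

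Genes of collagen-modifying enzymes in the list differed among themselves. P4ha1 and P4ha2 encode the catalytic subunits of collagen prolyl 4-hydroxylase, and Plod2 a lysyl hydroxylase that prepares collagen for cross-links. P4ha2 had 77.2 CPM in hypoxic SHP099 cells and 37.6 CPM in hypoxic control cells, against 10.3 and 8.39 CPM in the others, with ratios of 2.84 and 2.10. P4ha1 had 358 and 244 CPM, against 99.8 and 90.9 CPM, and Plod2 had 356 and 230 CPM, against 135 and 106 CPM. All 3 were higher in hypoxic cells of both libraries. Plod1, another lysyl hydroxylase gene, was not called at -0.13 and -0.02, nor was the lysyl oxidase gene Loxl2 at 0.28 and -1.99, and Lox lay under the filter. In addition the collagens and matrix list had 0 members called in either direction among 28 tested.

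Of the genes of glycogen metabolism in the list 3 were higher. Gys1 (glycogen synthase) had log2 ratios of 2.07 and 1.61, Gbe1 (the branching enzyme) of 1.73 and 1.61, and the phosphoglucomutase gene Pgm2 of 1.79 and 1.61 in the SHP099 and control libraries. Gbe1 had 31.3 and 26.4 CPM in hypoxic cells of SHP099 and control, against 9.10 and 8.30 CPM in the others. Pgm1, a second phosphoglucomutase gene, was not called at -0.21 and -0.53. The gene of the mitochondrial protein Higd1a stood at 966 and 873 CPM in hypoxic SHP099 and control cells against 228 and 270 CPM in the others. Bnip3l, the second mitophagy receptor of the Bnip3 family, had 248 and 189 CPM in hypoxic cells, against 70.9 and 63.9 CPM in the others. Of the 16 tested genes of mitophagy and autophagy Bnip3l alone was called.

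The oxygen sensors that HIF itself induces were higher. Egln1 had ratios of 1.81 and 1.39 and Egln3 of 1.58 and 1.35 in the SHP099 and control libraries, both of them prolyl hydroxylase genes. In contrast 0 of 11 tested genes of the HIF machinery were called, with medians of -0.07 and -0.12. Hif1a had log2 ratios of 0.22 in SHP099 and 0.43 in control, from 47.5 CPM in hypoxic SHP099 cells against 40.7 CPM in the other SHP099 tumour cells. Epas1, which encodes HIF2 alpha, lay under the filter, with at most 0.114 CPM in any of the 4 groups. Vhl, Arnt and Egln2 had ratios between -0.37 and 0.27 in both libraries. The targets were thus high in cells whose RNA for the factors differed by less than 1.5-fold.

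Carbonic anhydrase 9 (Car9), a classic HIF target that handles acid at the cell surface, fell under the filter because few cells outside the hypoxic ones had it. It had 24.3 CPM in hypoxic SHP099 cells and 8.52 CPM in hypoxic control cells, against 0.816 and 0.569 CPM in the others. After each cell was drawn down to 5000 UMIs, 9.38% of hypoxic SHP099 cells and 3.61% of hypoxic control cells had a Car9 UMI, against 0.510 and 0.278% of the others. Without drawing down the shares were 20.8 and 11.3%, against 1.71 and 1.53%. In Ptprc-positive barcodes 3.04% in SHP099 and 2.78% in control had one after drawing down, and 4.52 and 4.55% at full depth, with medians of 7381.5 and 7077 UMIs. The drawn-down share in hypoxic control cells was thus close to that of leukocytes, and the share in hypoxic SHP099 cells was above it.

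**Figure D3:**
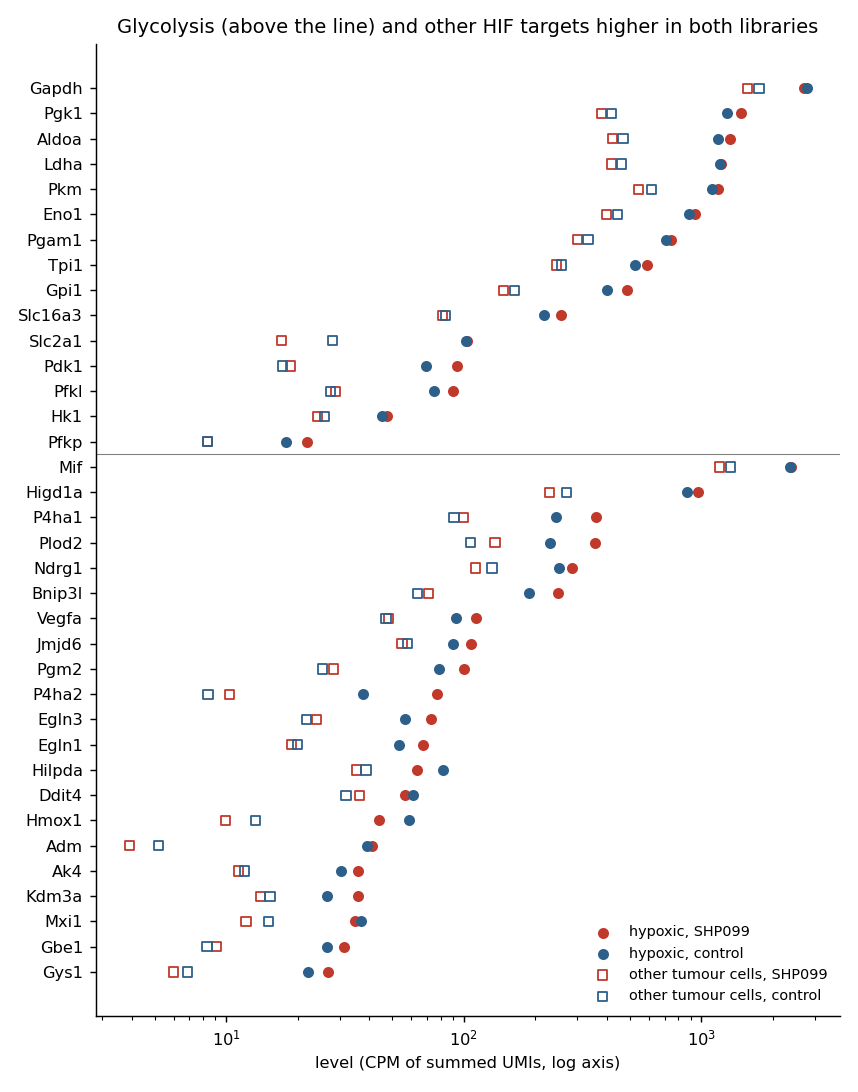
Summed level in CPM (log axis) of the 15 glycolysis genes and the 21 other HIF targets called higher, with filled circles for hypoxic cells and open squares for other tumour cells, red for SHP099 and blue for control. In every row both circles lie to the right of both squares, with Gapdh the rightmost at 2712 CPM in hypoxic SHP099 cells.

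Among the 15 genes with the largest ratios in the weaker of both libraries, the lists above held 10. One of these, Hmox1, the haem-degrading enzyme that both HIF and NRF2 are known to induce, had 44.1 and 58.5 CPM in hypoxic SHP099 and control cells, against 9.95 and 13.3 CPM in the others. Crabp2, a retinoic acid carrier, had ratios of 1.88 and 1.89, and Car6, a secreted carbonic anhydrase, had 2.30 and 1.88. In the other tumour cells Crabp2 had 4.39 CPM in SHP099 and 5.38 CPM in control, and Car6 3.56 and 4.41 CPM. Like Adm, both passed the filter through their level in hypoxic cells. Mgarp, a mitochondrial protein, had ratios of 2.05 and 1.83. The lipoprotein receptor gene Vldlr had 1.93 and 1.64, and Prelid2 2.05 and 1.64. In the hypoxic cells these 5 genes lay between 16.2 and 64.3 CPM.

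Lists of other stress pathways were called in part. Of 25 tested genes of the integrated stress response, which slows translation under stress, 3 were higher, where 1.46% of all genes tested were. None was lower, and the medians were 0.30 in SHP099 and 0.21 in control. Trib3, a pseudokinase and target of this response, had 80.2 and 68.2 CPM in hypoxic cells of SHP099 and control, against 24.7 and 35.5 CPM in the others. Ddit3 (CHOP) had ratios of 0.78 and 0.69, and Vldlr, given above, was the third. Atf4, the factor at its centre, had 0.30 and 0.22 and was not called. Chaperones of the endoplasmic reticulum and the unfolded protein response had 0 of 22 members called, with medians of -0.00 and 0.12. Of 17 NRF2 targets, which defend against oxidants, 4 were higher, where 1.46% of all genes tested were. They were Hmox1, which is also in the list of other HIF targets, Gstm1, Me1 and Ugdh. In SHP099 and control Gstm1 was at 0.96 and 1.07, the malic enzyme gene Me1 at 0.92 and 0.87, and Ugdh at 0.63 and 0.61.

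Part of the DNA replication genes were lower. Of 40 DNA replication genes 8 were lower and none higher, with median log2 ratios of -0.58 in SHP099 and -0.46 in control, and 39 of 40 were below 0 in both libraries. Rrm2, the ribonucleotide reductase subunit that limits the supply of DNA precursors, had 32.3 and 46.7 CPM in hypoxic SHP099 and control cells, against 68.0 and 77.6 CPM in the others. Thymidine kinase (Tk1) had 27.2 and 37.4 CPM in hypoxic cells, against 54.0 and 70.3 CPM in the others. Tyms, Ung, Fen1, Cdc6, Pole and Rfc3 were the other lower members, and Cdc45 was the 1 member above 0 in both, at 0.50 and 0.28. The list thus lay below 0 nearly throughout, most of it by less than 1.5-fold.

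Of 36 mitosis genes 2 were lower, where 1.82% of all genes tested were, namely the kinase gene Plk1 and the anaphase activator gene Cdc20, with medians over the list of -0.47 in SHP099 and -0.42 in control. The median cell had 419 CPM of mitosis genes in hypoxic SHP099 cells and 554 in hypoxic control cells, against 981 and 1368 in the others, and the upper quartile was 1213 in hypoxic SHP099 cells and 2846 in hypoxic control cells, against 3356 and 3621 in the others. The upper quartile of hypoxic control cells was thus closer to that of the other tumour cells than the upper quartile of hypoxic SHP099 cells was. The proliferation marker Mki67 had a UMI in 9.38% of hypoxic SHP099 cells and 16.8% of hypoxic control cells after drawing down to 5000 UMIs, against 16.2 and 16.9% of the others. In cells at full depth the shares were 23.6 and 33.8%, against 37.9 and 41.7%. In Ptprc-positive barcodes, which also hold dividing cells, the drawn-down shares were 17.7% in SHP099 and 11.1% in control. Top2a, a topoisomerase gene of dividing cells, had a UMI at that depth in 26.5% of hypoxic SHP099 cells (95% interval 22.7 to 30.6%) and 33.0% of hypoxic control cells (28.3 to 37.9%), against 37.6% (35.6 to 39.7%) and 39.4% (37.6 to 41.2%) of the others. In Ptprc-positive barcodes it was 31.0 and 23.7%. Hypoxic SHP099 cells were thus below the other tumour cells by both markers, and hypoxic control cells by Top2a. By Mki67 hypoxic control cells were close to the others at 5000 UMIs, with 16.8% (95% interval 13.2 to 20.8%). At full depth they were below them by Mki67, with 33.8 against 41.7%.

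Of 13 tested inhibitors of the cell cycle 3 were higher and 1 lower, where 1.46 and 1.82% of all genes tested were. Cdkn1a, the p21 gene, had 134 and 140 CPM in hypoxic SHP099 and control cells, against 62.3 and 75.7 CPM in the others. Ccng2 had ratios of 1.46 and 1.15 and Gadd45a of 1.44 and 0.98. Cdkn2c, the p18 gene, was lower at -0.72 and -0.64. In the p53 target list, which does not hold Gadd45a, Cdkn1a alone was called among 16 tested genes. Of 16 apoptosis genes 0 were called.

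Most listed genes of oxidative metabolism lay below 0 by small amounts. None of 75 tested nuclear genes of the respiratory chain was called, but 68 of them were below 0 in both libraries, with medians of -0.28 in SHP099 and -0.23 in control, against -0.11 and -0.07 over all genes. Their sum was 23931 CPM in hypoxic SHP099 cells and 25603 CPM in hypoxic control cells, against 28890 and 29851 CPM in the others. Ndufa4, at the end of the chain, had 243 and 254 CPM in hypoxic cells, against 397 and 373 CPM in the others. Ndufv3 of complex I stood apart at ratios of 0.55 and 0.50. Of the 13 genes on mitochondrial DNA 12 were below 0 in both, and mt-Co1 was above it at 0.19 and 0.08. Of 18 genes of the TCA cycle 15 were below 0 in both libraries and 0 were called, with medians of -0.22 and -0.19. Most of all genes tested were below 0 in each library too, with upper quartiles of 0.08 in SHP099 and 0.09 in control. Counts of list members below 0 are therefore to be read beside the list medians.

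Biosynthetic lists also lay mostly below 0. All 22 tested genes of sterol synthesis, an oxygen-consuming pathway, were below 0 in both libraries, with medians of -0.28 in SHP099 and -0.42 in control. Of these 2 were lower, among them Idi1 at -0.61 and -0.72 in SHP099 and control. All 18 tested genes of ribosome biogenesis were below 0 in both, with medians of -0.49 and -0.37 and 0 called. Bop1 was at -0.85 and -0.56 and Nolc1 at -0.78 and -0.50. The cytosolic ribosomal protein genes lay on the other side, with 60 of 76 above 0 in both libraries and medians of 0.13 and 0.10. Of 12 fatty acid synthesis genes Elovl6 was lower, at -0.80 and -0.77, and Me1 was higher. Heat shock chaperones had 13 of 16 members below 0 in both libraries, with medians of -0.26 and -0.17. Cryab alone was called, higher at 1.31 and 1.39.

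Chemokines and interferon-responsive genes were the other lower group. Of 16 tested cytokines and chemokines 7 were lower and none higher, all of them chemokines, with medians over the list of -0.56 in SHP099 and -0.42 in control. Cxcl10 (chr5:92346638-92348889, minus strand, GRCm38), which draws T cells through CXCR3, had 259 and 234 CPM in hypoxic SHP099 and control cells, against 674 and 663 CPM in the others, with ratios of -1.38 (-1.44 to -1.33) and -1.50 (-1.56 to -1.45). Ccl2, which draws monocytes through CCR2, had 589 and 617 CPM in hypoxic cells, against 1441 and 1273 CPM in the others. Cxcl9, Ccl5, Ccl7, Cxcl1 and Cxcl2 were lower as well. The other 9 were not called, and the cytokine gene Il11 was the 1 member above 0 in both libraries, at 0.26 and 0.17.

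Of 36 tested type I interferon-stimulated genes 8 were lower and none higher, with medians of -0.53 and -0.40, and 33 were below 0 in both libraries. Ifit1, an antiviral RNA-binding protein, had 73.4 and 49.4 CPM in hypoxic SHP099 and control cells, against 143 and 83.6 CPM in the others. Ifi27l2a had 167 and 151 CPM in hypoxic cells, against 367 and 282 CPM in the others. Of 21 tested interferon-gamma-responsive genes 5 were lower, with medians of -0.42 and -0.64, and Serpina3g, one of them, was at -1.89 and -1.33. Of 17 genes of MHC class I presentation the proteasome subunit gene Psmb10 alone was lower, at -0.78 and -0.59, and the medians over the list were -0.24 in SHP099 and -0.20 in control, with 15 of 17 genes below 0 in both libraries. The exceptions were B2m at 0.16 and 0.03 and H2-D1 at 0.08 and 0.04. Summed macrophage marker RNA, given above, was also lower in hypoxic than in other tumour cells. It stood at 247 against 272 CPM in SHP099 and at 199 against 228 CPM in control. Its part in these lower values was not tested.

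Other genes with the largest negative ratios were Unc13d, which primes vesicles for release, at -2.13 and -1.13, Aldh1a3, which makes retinoic acid, at -1.11 and -1.33, and the interferon-induced Slfn2 at -1.13 and -0.97. Mns1, Aunip and Mtfp1 had ratios between -1.09 and -0.96 in both libraries. Dqx1 was at -2.25 and -1.78, from 6 UMIs in hypoxic SHP099 cells and 20 in hypoxic control cells. The ERK targets and feedback list, which reads the pathway that SHP2 feeds, had 1 of 19 members lower, Etv1, and medians of -0.01 and -0.17. Of 19 immediate-early genes Zfp36 alone was lower.

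The lists changed by degrees along the score. When all tumour cells were cut into 20 steps of equal size, the hypoxic cells filled steps 18 to 20. The summed glycolysis level was 4239 CPM at step 10, 8851 at step 18 and 13665 at step 20 in the SHP099 library, and 4905, 7966 and 14689 CPM in control. The other HIF targets had 2616, 4838 and 7670 CPM at these steps in SHP099, and 2693, 4399 and 7349 CPM in control. DNA replication genes had 1580, 1174 and 783 CPM in SHP099, and 1507, 1242 and 793 CPM in control, with step 20 the lowest of the 20 in both libraries. They were not highest at the bottom of the score either, with 878 CPM at step 1 in SHP099 and 1277 CPM in control. Type I interferon-stimulated genes had 5177 CPM at step 1 and 2158 CPM at step 20 in SHP099, and 4373 and 2041 CPM in control. Replication genes were thus low at both ends of the score, most plainly in SHP099, while interferon-stimulated genes were highest in the 2 lowest steps and lowest at step 20 in both libraries. Steps 1 and 20 differ in depth as well, with a median of 16088 UMIs at step 1 and 22041 at step 20 in SHP099.

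**Figure D4:**
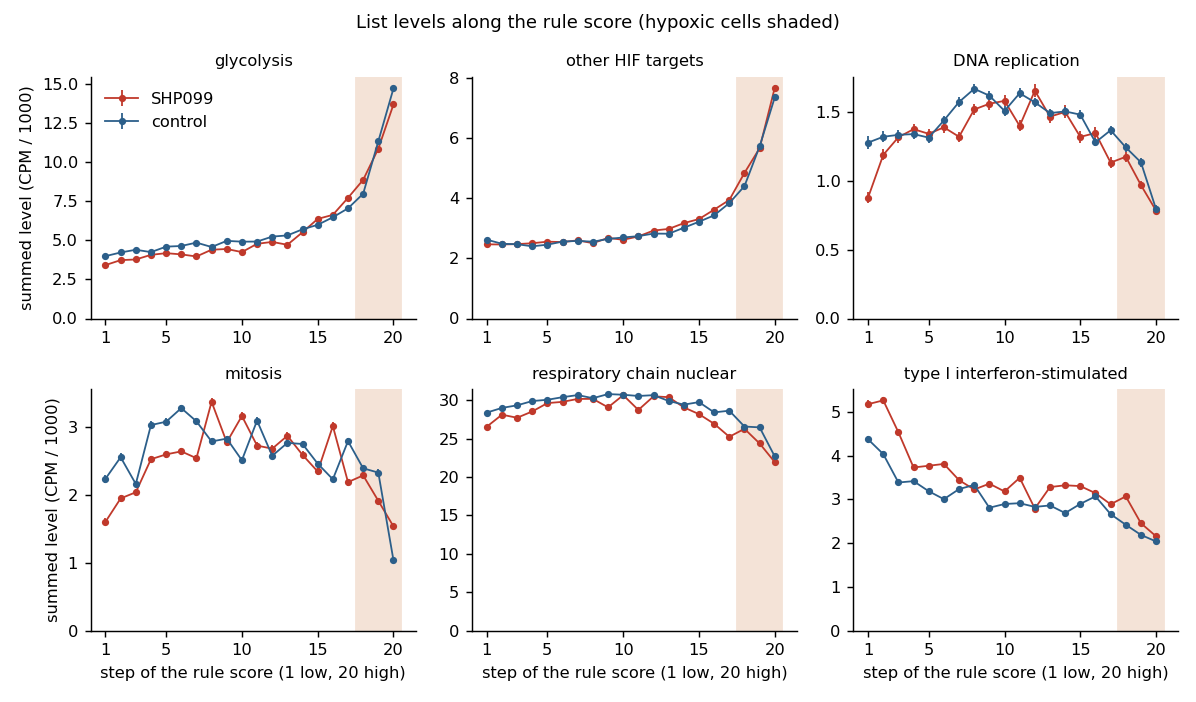
Summed level of 6 gene lists (CPM / 1000, axis from 0) in 20 steps of the rule score, 1 lowest and 20 highest, with SHP099 in red, control in blue, 95% exact Poisson bars and the steps of the hypoxic cells shaded. Glycolysis and other HIF targets climb most in the shaded steps, DNA replication and mitosis are lowest at step 20 and are low at step 1 in SHP099 as well, and interferon-stimulated genes are highest in steps 1 and 2.

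Among hypoxic cells the HIF targets varied together. Across the 501 hypoxic cells of SHP099 and the 388 of control, Spearman's rho of the rule score with the summed other HIF targets was 0.68 and 0.65, and that of glycolysis with the other HIF targets was 0.60 and 0.64. The other HIF targets ran against the mitosis list at rho -0.30 and -0.21, where among the other tumour cells the values were -0.04 and -0.09. These are descriptions of cells that share a library and divide by the same total of UMIs.

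Within hypoxic cells the SHP099 and control libraries were then compared, which asks how SHP099 tumours differ from control tumours at the hypoxic end. Of 8577 genes 117 were at least 1.5-fold higher in SHP099, which is 1.36%, and 68 were lower, which is 0.793%. With a stricter tumour gate 312 were higher and 144 lower, so these counts depend on which cells enter. The 2 sets of hypoxic cells did not sit at the same place on the score. In 3 bands of the score that split the hypoxic cells evenly, from the top, SHP099 gave 202, 165 and 134 cells and control 95, 131 and 162 cells. Ratios are therefore also given with the 3 score bands weighted alike in each library, an alternative added after the data were seen.

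HIF targets leaned toward SHP099 by less than 1.5-fold for most members, and by less when the score was balanced. Over the 17 tested glycolysis genes the median log2 ratio of SHP099 over control was 0.17 within hypoxic cells and -0.14 within the other tumour cells, with 0 genes called within hypoxic cells. With score bands weighted alike it was 0.04 within hypoxic cells. Over the 31 other HIF targets the median was 0.24 within hypoxic cells and 0.03 within the others, and 0.13 with score bands weighted alike. Of these 5 were called higher in SHP099 hypoxic cells, where 1.36% of all genes tested were, among them P4ha2, Plod2, Tfrc and Loxl2.

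P4ha2 had a ratio of 1.03 (0.87 to 1.21) within hypoxic cells, 0.29 within the others and 0.78 with score bands weighted alike. Plod2 had 0.63, 0.35 and 0.50 in the same order, which is under 1.5-fold with score bands weighted alike. The transferrin receptor gene Tfrc had 22.4 CPM in hypoxic SHP099 cells, against 14.4 CPM in hypoxic control cells, and in the other tumour cells 19.6 against 12.2 CPM, so the difference was as large there. With score bands weighted alike the ratio of Tfrc was 0.74. For Loxl2, a lysyl oxidase, few cells carried the difference, since 81.1% of its 148 UMIs in hypoxic SHP099 cells came from the highest 1% of cells, and hypoxic control cells had 31 UMIs.

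Among the 8 called genes with the highest ratios and at least 20 CPM over all tumour cells were Postn, Aspn, Tmx4, Fos, Klf2, Wnt5a and Tnfaip6. Postn, the matrix protein periostin, had 40.9 CPM in hypoxic SHP099 cells against 20.8 CPM in hypoxic control cells, and Aspn, a small proteoglycan, had 75.1 against 41.6 CPM. In the other tumour cells Postn had 66.9 CPM in SHP099 against 29.8 CPM in control, so the difference was as large outside the hypoxic cells. The early-response factor Fos had 854 CPM in hypoxic SHP099 cells against 493 CPM in hypoxic control cells, and Klf2, a zinc-finger factor, had 478 against 279 CPM. Tmx4, Wnt5a and Tnfaip6 had ratios of 0.79, 0.69 and 0.67. These 7 genes were higher in the other tumour cells too, with ratios between 0.33 and 1.15.

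No list had more members called in this comparison than the immediate-early genes. Of 19 tested members 6 were called higher in SHP099 hypoxic cells and 0 lower, where 1.36 and 0.793% of all genes tested were. The 6 were Fos, Fosb, Jun, Egr1, Egr2 and Klf2. The list had a median of 0.37 within hypoxic cells, 0.30 within the other tumour cells and 0.42 with score bands weighted alike. Jun had 871 CPM in hypoxic SHP099 cells and 575 CPM in hypoxic control cells, and 866 and 751 CPM in the others. The ERK targets and feedback list had 2 of 19 members called higher, Etv1 and Egr1, where 1.36% of all genes tested were. It had 0 called lower, with a median of 0.09 within hypoxic cells and -0.05 within the others.

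The 8 called genes with the lowest ratios and at least 20 CPM were Whrn, Fam159b, Pbld1, Cryab, Hspa1b, Lrrn4cl, Cxcl9 and Them6. Whrn, a scaffold protein known from hair cells of the ear, had 23.7 CPM in hypoxic SHP099 cells against 53.4 CPM in hypoxic control cells, and 30.4 against 55.1 CPM in the other tumour cells. Cryab, a small heat shock protein, had 43.0 against 76.4 CPM in hypoxic cells, and 17.0 against 28.8 CPM in the others. Both were lower in SHP099 inside and outside the hypoxic cells. Hspa1b, an inducible heat shock gene, had 13.1 CPM in hypoxic SHP099 cells against 23.3 CPM in hypoxic control cells. Within the other tumour cells its ratio was -0.17. The chemokine Cxcl9 had 12.4 CPM in hypoxic SHP099 cells against 20.5 CPM in hypoxic control cells, a ratio of -0.70, but with a cut of 10% of tumour cells the ratio was 0.086, so its direction depends on the cut. For Pbld1, at -1.08, 38.8% of the UMIs in hypoxic SHP099 cells and 62.3% of those in hypoxic control cells came from the highest 1% of cells. Of 17 NRF2 targets 2 were lower in SHP099 hypoxic cells, where 0.793% of all genes tested were. They were the cystine transporter gene Slc7a11 at 6.26 against 13.9 CPM and Gclm, a subunit of the enzyme that starts glutathione synthesis, at 30.3 against 46.1 CPM.

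**Figure D5:**
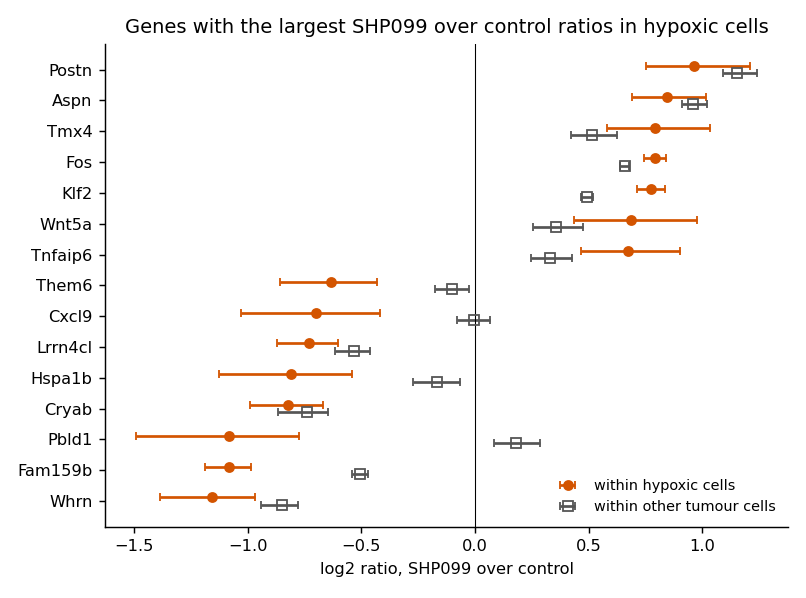
Log2 ratios of SHP099 over control for 7 of the 8 highest and for the 8 lowest called genes with at least 20 CPM, within hypoxic cells (filled orange circles) and within other tumour cells (open grey squares), with 95% counting intervals. The 7 upper genes lie right of 0 in both kinds of cell, from Postn at 0.96 within hypoxic cells, and among the lower genes Pbld1 lies on opposite sides of 0 and Cxcl9 at -0.70 and -0.01.

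The difference of the SHP099 ratio within hypoxic cells minus that within other tumour cells was largest, among genes with at least 20 CPM over all tumour cells, for Igfbp4, Trib3, Slc2a1 and Nppb. For Slc2a1 the ratio was 0.02 (-0.10 to 0.14) within hypoxic cells and -0.70 (-0.83 to -0.60) within the others, a difference of 0.72. Nppb, a natriuretic peptide gene, had -0.20 within hypoxic cells and -0.83 within the others. These 2 genes were lower in SHP099 outside the hypoxic cells and differed less inside. With score bands weighted alike the ratio within hypoxic cells was -0.19 for Slc2a1 and -0.10 for Nppb. The differences were then 0.51 for Slc2a1 and 0.73 for Nppb. At the other end, with the same limit, stood Pbld1, Enah, Angptl4 and Cxcl9. Angptl4 had a ratio of 0.01 within hypoxic cells and 0.82 within the others, where it stood at 31.7 CPM in SHP099 and 17.7 CPM in control, so its difference lay outside the hypoxic cells. Across glycolysis all 17 tested genes had a larger ratio of hypoxic over other cells in the SHP099 library than in control, where 40.9% of all genes tested did. The hypoxic cells of SHP099 lay higher on the score. With score bands weighted alike 17 of 17 differences were above 0 as well, but their median was 0.16, against 0.27 without the weighting. The weighting covered hypoxic cells only. The other tumour cells, with median scores of 248 CPM in SHP099 and 300 CPM in control, were not balanced. No test of these differences is possible with 1 library per group.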

How the data were processed

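Single-cell suspensions of MC38 tumours were sequenced with the 10x Genomics 3′ assay, 1 library per group. The authors deposited raw UMI counts per gene and barcode; Cell Ranger and the builds mm10 and GRCm38 are named per the submitters' processing notes, and the matrix carries software version 3.1.0 per the file headers. Gates, score and the cut of 15% are those given in the report. Counts were summed per library and cell set, scaled to CPM, and compared as log2 ratios with a prior of 0.5 CPM for genes with at least 5 CPM over all tumour cells. Intervals are 95% exact binomial (Clopper-Pearson) ones for shares, a log interval (Katz) for the ratio of shares, and exact conditional binomial ones for ratios of counts, which leave out the prior; all cover counting error only. With 1 library per group there are no tests. Ptprc-positive barcodes passed the limits on genes and mitochondrial share and had at least 1 Ptprc UMI; those in shares of cells with a UMI also had at least 5000 UMIs.

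The members and lists were chosen with earlier results of these data known. Genes were named by rule: the 15 highest and 12 lowest called genes by the smaller ratio of both libraries, the 8 highest and 8 lowest called SHP099 ratios and the 4 highest and 4 lowest differences of ratios at 20 CPM or more, up to 4 highest and 3 lowest members of each list, and any gene of the glycolysis and HIF lists. Other list members are named to complete a count or as reference and were chosen after their values were seen. A few genes that the rule or a count includes are not reported here. Doublets were not removed, since the rule has no such step; Scrublet called 2.67% of SHP099 and 3.31% of control barcodes, 3 in each library among hypoxic cells, and leaving them out was an alternative. Other settings were tried as well, 20 of them fixed with the design and 2 added after seeing the data (leaving out cells with at least 10 haemoglobin UMIs, and weighting the score bands alike). The procedure was tested on simulated data. Python 3.11.15, numpy 2.4.6, scipy 1.17.1, pandas 2.3.3 and scanpy 1.11.5 were used.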

Additional observations from a re-analysis of the deposited data

Results flagged for a closer look

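For 4 genes and 1 list the ratio of SHP099 over control had opposite signs within hypoxic cells and within other tumour cells. With 1 library per group these differences were not tested. Igfbp4, an insulin-like growth factor binding protein, had 0.50 within hypoxic cells and -0.25 within the others, a difference of 0.75 on the log2 scale. Trib3 had 0.23 and -0.51, a difference of 0.74, but with score bands weighted alike its ratio within hypoxic cells was 0.08. Over the glycolysis genes the medians were 0.17 and -0.14, and the median of the differences was 0.27; with the score bands of hypoxic cells weighted alike it was 0.16, and the median within hypoxic cells was 0.04. Pbld1 had -1.08 within hypoxic cells and 0.18 within the others, a difference of -1.26. Enah, an actin regulator, had -0.46 and 0.63, a difference of -1.09, and 68.2% of its UMIs in hypoxic SHP099 cells and 74.5% of those in hypoxic control cells came from the highest 1% of cells.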

How the results depend on the processing

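Among recomputed counts and shares 194 stayed near the reported value and 41 moved, and among values of named genes 909 stayed, 157 moved and 8 changed sign; for those that moved the cause was not tested unless cells or genes were left out. The ratio of hypoxic shares was 1.99 with a cut of 10%, 1.33 with a cut of 20% and 1.33 with the rule genes scaled to their own mean; taking 15% within each library fixes it at 1. Genes higher in SHP099 hypoxic cells numbered 202 with a cut of 10%, 27 with a prior of 5 CPM, 336 with a filter of 1 CPM, 22 with a filter of 20 CPM and 312 with a stricter gate, which left 197 hypoxic SHP099 and 172 hypoxic control cells. Genes lower there numbered 168 with 15% within each library, and 16, 197, 13 and 144 with that prior, both filters and that gate. Genes lower in hypoxic cells numbered 364 with a cut of 10%, 60 with 20%, 101 with 15% within each library, 54 with a prior of 5 CPM, 74 with a filter of 20 CPM and 80 when centred; genes higher numbered 70 with a filter of 20 CPM. Lower DNA replication members numbered 21 with a cut of 10%, 13 with hypoxic cells balanced on the score, and 4 with a cut of 20%, a prior of 5 CPM or a filter of 20 CPM. Lower type I interferon-stimulated members numbered 13 with a cut of 10%, and 5 with that prior, that filter or a score from 5000 drawn UMIs. Lower interferon-gamma-responsive members numbered 8 with each cell weighted alike, and 3 with a cut of 20%, that prior, that filter or the drawn score. Higher other HIF targets numbered 13 with a filter of 20 CPM. With calls from 1 library alone, genes higher ranged over 155 to 196, genes lower over 250 to 500, lower DNA replication members over 10 to 19, type I interferon-stimulated over 10 to 16 and interferon-gamma-responsive over 5 to 13. The ratio of SHP099 over control for Cxcl9 within hypoxic cells was 0.086 with a cut of 10% and 0.096 with scaled rule genes. Its difference from the other tumour cells was 0.13 and 0.18 under these, 0.011 without Fam162a in the score and 0.28 with the stricter gate, and that of Enah was 0.043 and 0.016 under the cut of 10% and the scaled genes. No paired analysis was possible because each group has 1 library. Depth limits single cells more than sums: Dqx1 rested on 6 UMIs in hypoxic SHP099 cells.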

Other observations

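The genes named here were chosen after their values were seen. The metallothioneins, small proteins that bind zinc and copper, were higher in hypoxic cells of both libraries. Mt1 had 2453 CPM in hypoxic SHP099 cells and 2416 CPM in hypoxic control cells, against 782 and 853 CPM in the other tumour cells. Mt2 had 2008 and 1958 CPM, against 604 and 784 CPM. Bsg, which escorts lactate transporters to the cell surface, had log2 ratios of hypoxic over other cells of 1.24 in SHP099 and 1.03 in control. Cox6a2, a subunit of cytochrome c oxidase known from muscle, had 96.5 and 102 CPM in hypoxic cells, against 36.4 and 39.1 CPM in the others, while the respiratory chain lay below 0 as a list. Nos2, the inducible nitric oxide synthase, had ratios of 1.69 and 1.09, and the mitochondrial protease gene Lonp1 1.02 and 0.81. Of 22 tested histone genes 11 were lower and 0 higher, with medians of -0.88 in SHP099 and -0.53 in control, and near-identical copies among them can share reads.

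The rule genes were also present in Ptprc-positive barcodes, which the report uses as background only. Their sum was 476 CPM in 2658 such barcodes of SHP099 and 542 CPM in 2623 of control. Vegfa had 144 and 199 CPM in these barcodes, above the hypoxic tumour cells at 113 and 92.5 CPM. The 3 haemoglobin genes among those lower in hypoxic cells rested on single cells, since 1 other tumour cell of the SHP099 library and 1 of control carried most of their UMIs.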
